A study of Mus musculus with 45 samples.

Results

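Zpr1, Dnajc2, Rnf25, Lypla2, Slc50a1 and Gnai3 are 6 of the 55385 genes listed in every gene table of the RNA-seq libraries, and they were selected by name because their transcripts were much lower after degradation of the transcription factor GABPA in some of the stages sampled. All libraries carried the Gabpa-dTAG/dTAG genotype, in which both alleles of Gabpa encode a fusion with the FKBP F36V degron, so that the small molecule dTAG13 sends the GABPA protein to the proteasome. Control libraries carried the same alleles and received the solvent DMSO. The 18 libraries comprised late two-cell embryos (3 with DMSO and 3 with 1 µM dTAG13, from 6 to 30 h post fertilization), morulae (2 and 2, with 1 µM dTAG13 from 42 h), inner cell masses labelled E4.5 ICM (2 and 2, with 1 µM dTAG13 from 84 to 100 h) and E14 embryonic stem cells in the 2i/LIF medium, called 2iES (2 and 2, with 0.5 µM dTAG13 for 24 h). Embryos came from in vitro fertilization in a line backcrossed to C57BL/6J, ICMs were freed of trophectoderm by immunosurgery and held both epiblast and primitive endoderm, and the 2iES line was grown from single picked clones. Because all 4 contrasts of dTAG13 with DMSO served to choose the genes, their differences in those contrasts are given as a description, without a test. The DMSO libraries are one arm of each of those contrasts, so the levels of the genes across the control stages are a description as well. Tests are given only for related and neighbouring genes.

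GABPA is the DNA-binding subunit of an ETS family factor. It recognises a purine-rich core with the letters GGAA and pairs with GABPB, which carries the activation domain, and its best known targets are the promoters of widely expressed genes for translation, mitochondria and cell growth. Of the genes described here, 3 act around RNA and the ribosome. Zpr1 encodes a zinc finger protein that binds the elongation factor eEF1A and the SMN protein, Dnajc2 encodes a J-domain chaperone that sits on ribosomes with Hspa14, and Rnf25 encodes a RING-type ubiquitin ligase that acts at stalled ribosomes. The others act at membranes. Lypla2 encodes acyl-protein thioesterase 2, which removes palmitate from proteins, Slc50a1 encodes the mammalian member of the SWEET family of sugar transporters, and Gnai3 encodes an alpha subunit of inhibitory G proteins.

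The libraries held 20449966 to 23718870 expected counts at the late two-cell stage, 9457933 to 12382705 in morulae, 18266057 to 20818291 in E4.5 ICM and 20146785 to 27660132 in 2iES cells. Gabpa mRNA itself was higher with dTAG13 at every stage, with no overlap between the groups, at 103 ± 14.7 against 153 ± 10.6 TPM (RSEM's transcript abundance, scaled to the same total in each library, mean ± SD, n = 3 and 3) at the late two-cell stage and 10.6 ± 0.764 against 27.4 ± 0.177 (n = 2 and 2) in E4.5 ICM, so the mRNA gives no check of the loss of the protein. Summed levels of fixed marker lists differed between the arms. At the late two-cell stage 5 oocyte markers summed to 1334 to 1347 TPM with DMSO and 1696 to 1932 with dTAG13. In E4.5 ICM 6 trophectoderm markers summed to 66.5 to 72.6 TPM with DMSO, when 4 of them reached 1 TPM, and to 775 to 776 with dTAG13, when all 6 did, whereas 6 pluripotency markers went from 483 to 496 down to 345 to 347. Also in E4.5 ICM, 5 primitive endoderm markers went from 221 to 230 TPM up to 295 to 297. In 2iES cells the 6 pluripotency markers went from 340 to 354 TPM down to 216 to 229. The part of these differences in the results below was not tested. By the study's account these ICMs were taken at the mid-blastocyst stage, before epiblast cell numbers differed between the arms. In the bulk samples themselves, fewer cells that express a gene and less RNA per cell cannot be told apart. The E4.5 ICM replicates differed from each other by little more than sampling noise (chi-square per degree of freedom of 1.99 and 2.05, against 5.80 to 84.55 for the replicate pairs of the other groups), so errors there may be technical.

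The sequence around the starts of these genes is shown because GABPA acts at promoters. RefSeq windows on GRCm38.p6 (250 bases before the start to 50 from it on) matched 5 of the 6 genes, all but Dnajc2. The 100 bases before the start and the 50 from the start on are printed below in the direction of the gene, with each CCGGAA, or TTCCGG where the core lies on the other strand, in capitals.
Zpr1 (chr9:46272964-46273113, plus strand): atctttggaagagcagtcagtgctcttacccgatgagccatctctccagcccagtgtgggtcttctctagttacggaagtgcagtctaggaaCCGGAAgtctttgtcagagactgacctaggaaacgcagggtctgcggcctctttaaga
Rnf25 (chr1:74601348-74601497, minus strand): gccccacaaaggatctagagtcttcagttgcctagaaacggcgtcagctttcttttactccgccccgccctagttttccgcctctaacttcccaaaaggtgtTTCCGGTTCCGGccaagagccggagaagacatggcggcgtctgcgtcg
Lypla2 (chr4:135972545-135972694, minus strand): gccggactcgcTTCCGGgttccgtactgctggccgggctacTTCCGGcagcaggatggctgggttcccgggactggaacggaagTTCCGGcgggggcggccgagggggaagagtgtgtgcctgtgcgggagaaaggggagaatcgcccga
Slc50a1 (chr3:89270521-89270670, minus strand): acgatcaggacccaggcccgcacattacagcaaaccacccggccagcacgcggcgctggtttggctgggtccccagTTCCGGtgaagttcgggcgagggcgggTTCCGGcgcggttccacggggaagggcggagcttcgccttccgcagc
Gnai3 (chr3:108146103-108146252, minus strand): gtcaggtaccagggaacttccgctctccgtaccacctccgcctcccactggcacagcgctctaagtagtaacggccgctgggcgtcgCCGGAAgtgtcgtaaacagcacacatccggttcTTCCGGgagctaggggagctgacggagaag
The capitals mark 1 core in Zpr1, 2 in Rnf25, 3 in Lypla2, 2 in Slc50a1 and 2 in Gnai3. All of them lay between 89 bases before the start and 25 bases after it, with the start counted as 0. The cores of Rnf25 stood directly side by side, from position 2 to 13, and that of Zpr1 spanned positions -8 to -3. The longer word CCGGAAG, searched on both strands, was present in Zpr1, Lypla2 and Gnai3, that is in 3 of 5 windows, against 8.86% of all 32851 windows of the same length. Its extension CCGGAAGTG, which overlaps it, was present in Gnai3 only, from -13 to -5, against 2.03% of all windows. The shorter word CCGGAA, contained in both, was chosen after the sequences had been seen, and it was present in 5 of 5 windows against 14.9% of all. The overlapping word CGGAAG, added at the same time, was present in 4 of 5 (not in Rnf25) against 16.9%. The windows had a GC content of 51.3% in Zpr1, 52.3% in Rnf25, 59.3% in Gnai3, 61.0% in Slc50a1 and 64.0% in Lypla2, beside a median of 52.7% over all windows. They held 9 CpG in Zpr1, 16 in Rnf25, 19 in Lypla2, 22 in Slc50a1 and 21 in Gnai3, all above the median of 7 over all windows. Each word searched contains a CpG, and the shares over all windows were not matched for this. These matches describe letters and not bound sites, and binding data were not analysed here.

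**Figure D1:**
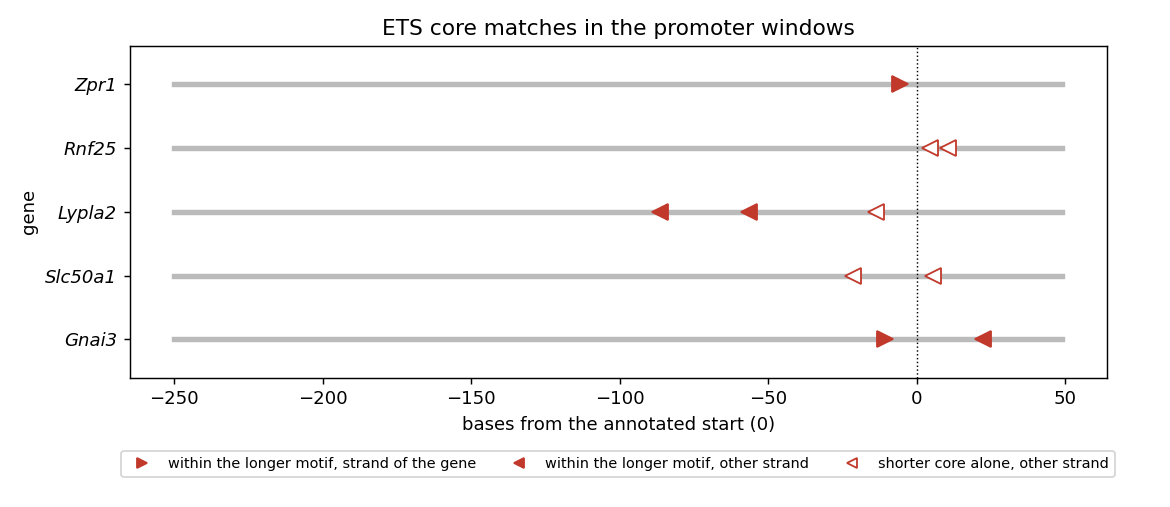
Positions of the 6-letter core in the promoter windows of 5 genes. The x axis gives bases from the annotated start, arrowheads give the strand, and filled arrowheads mark cores within the 7-letter word, present in Zpr1, Lypla2 and Gnai3, while open ones mark the shorter core alone. All matches lie within 89 bases upstream and 25 bases downstream of the start.

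With dTAG13, the mean level of all 6 genes was lower than with DMSO at the late two-cell stage, in E4.5 ICM and in 2iES cells, and that of 5 of 6 was lower in morulae, where Dnajc2 was not. The genes did not respond alike. Lypla2, Slc50a1 and Rnf25 were reduced to between nothing and 7.23% of their control level in E4.5 ICM and 2iES cells, Zpr1 and Gnai3 kept 10.9% to 59.2% there, and Dnajc2 kept 82.4% and 55.1%, so that the choice for a large difference does not describe Dnajc2 in E4.5 ICM. A gene was called when the adjusted p of the edgeR quasi-likelihood test was under 0.05, the fold change at least 2 and the mean FPKM at least 1 in 1 of the groups. All 6 genes passed the filter on low counts at every stage, but Slc50a1 and Rnf25 in E4.5 ICM and Lypla2 in 2iES cells passed it only through their DMSO libraries. By this rule 4 of 6 were called lower at the late two-cell stage (Zpr1, Dnajc2, Rnf25 and Gnai3), where 3.63% of all genes tested were called lower. None was called in morulae, where 0.198% were (27 of 13667 genes, with 1854 at an unadjusted p under 0.05 in either direction). In E4.5 ICM 4 of 6 were called lower (Zpr1, Rnf25, Lypla2 and Slc50a1) beside 13.2% of all genes, and in 2iES cells 5 of 6 (all but Dnajc2) beside 15.6%. Since the genes were picked from these contrasts, nothing is read from the counts. The median log2 fold change of the 6 genes was -1.39 at the late two-cell stage, -0.46 in morulae, -3.56 in E4.5 ICM and -3.46 in 2iES cells, beside 0.02, -0.02, 0.01 and 0.03 over all genes tested, and the median for E4.5 ICM does not depend on the value given to Slc50a1, which had no counts there. The dose of dTAG13 differed between embryos and 2iES cells. Its duration matched that in 2iES cells at the late two-cell stage but not in E4.5 ICM, and it is not known for morulae. The stages are therefore set side by side without a comparison.

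**Figure D2:**
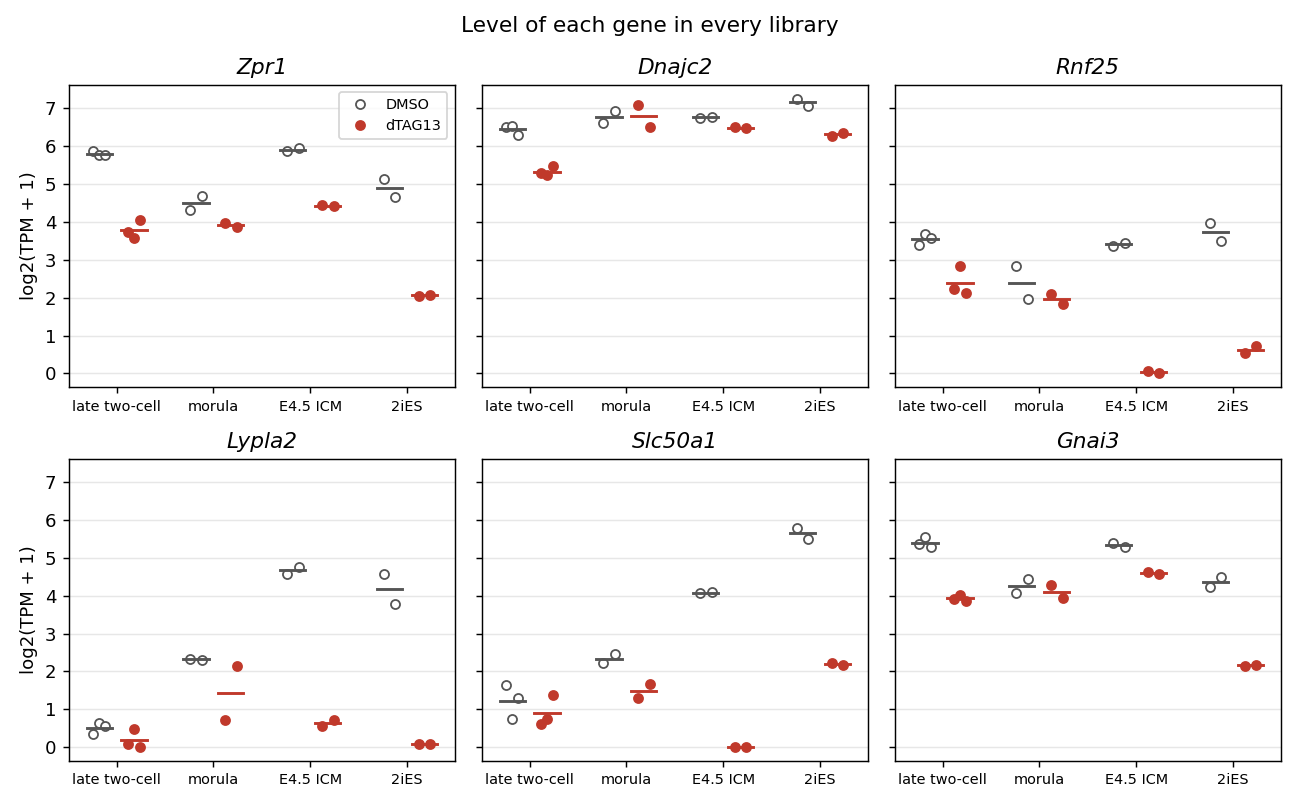
Level of the 6 genes as log2(TPM + 1) on the y axis in each of the 18 libraries, by stage on the x axis. Open grey points are DMSO libraries, filled red points are dTAG13 libraries and bars are group means. The gap between the arms is wide for Lypla2, Slc50a1 and Rnf25 in E4.5 ICM and 2iES and narrow for Dnajc2, and in morulae the arms of Dnajc2, Gnai3 and Rnf25 overlap.

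**Figure D3:**
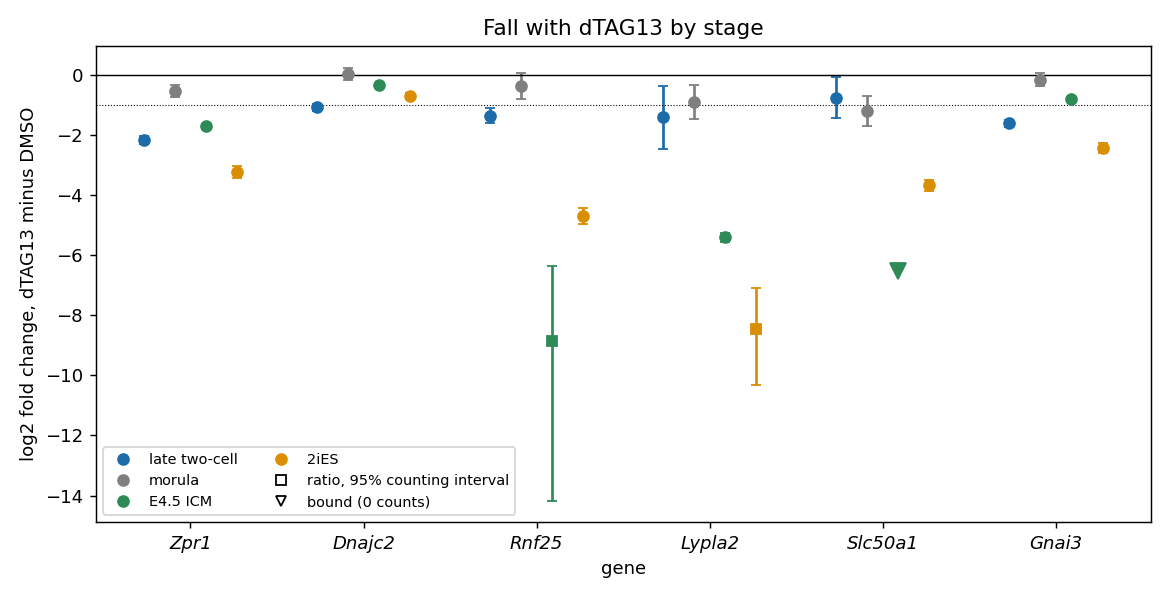
Log2 fold change of dTAG13 minus DMSO for each gene (y axis) by stage. Circles give the edgeR estimate ± SE, squares give a ratio of few counts with its 95% counting interval, the triangle is a bound where dTAG13 libraries had 0 counts, and the dotted line marks a 2-fold lower level. The lowest points drawn belong to Rnf25 in E4.5 ICM (465-fold lower) and Lypla2 in 2iES (352-fold lower). Slc50a1 in E4.5 ICM is drawn at its bound (at least 92.8-fold lower) and cannot be ranked with them.

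Among the genes around RNA and the ribosome, Zpr1 (ENSMUSG00000032078.17, chromosome 9, 46273064 to 46282643, plus strand, GRCm38) was lower at every stage. At the late two-cell stage it stood at 57.7, 53.7 and 53.7 TPM in the DMSO libraries and at 12.2, 10.9 and 15.5 TPM with dTAG13. Every dTAG13 library was thus far under every DMSO library, and 23.4% of the control mean remained, with a log2 fold change of -2.17 ± 0.13 (SE, n = 3 and 3). In morulae it stood at 19.1 and 24.9 TPM against 14.8 and 13.7 TPM, which kept the groups apart by a margin smaller than the distance between the DMSO libraries, at -0.54 ± 0.21 (n = 2 and 2). In E4.5 ICM the values were 57.4 and 60.5 TPM against 20.8 and 20.4 TPM, or 34.9% of control. In 2iES cells Zpr1 stood at 34.3 and 24.1 TPM against 3.15 and 3.19 TPM, or 10.9% of control and -3.24 ± 0.20. Both dTAG13 libraries were again far below the lower of the DMSO libraries.

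Dnajc2 (ENSMUSG00000029014.14, chromosome 5, 21757267 to 21785251, minus strand) had the highest mean TPM of the 6 genes in the control libraries of each stage. In late two-cell embryos it stood at 90.6, 91.7 and 77.8 TPM with DMSO and 38.5, 36.5 and 43.2 TPM with dTAG13, with 45.4% remaining and a log2 fold change of -1.08 ± 0.12. In morulae the values of 97.2 and 121 TPM with DMSO lay between those of 136 and 90.9 TPM with dTAG13, so the groups overlapped. In E4.5 ICM Dnajc2 read 107 and 108 TPM against 89.5 and 87.9 TPM, a small difference (-0.33 ± 0.03) that still exceeded the narrow spread there, and in 2iES cells it read 152 and 133 TPM against 76.6 and 80.4 TPM (-0.70 ± 0.10). Both were under the 2-fold threshold. Of the 31-base words in Dnajc2 transcripts, 9.84% recur in transcripts of other genes, mostly Gm18913, so a part of its reads could have been shared out between them.

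Rnf25 (ENSMUSG00000026171.12, chromosome 1, 74593748 to 74601397, minus strand) was expressed at a lower level than Zpr1 and Dnajc2 and was almost absent from treated E4.5 ICM. In late two-cell embryos it stood at 9.46, 11.8 and 10.9 TPM with DMSO and at 3.66, 6.11 and 3.33 TPM with dTAG13, which left 40.7% and kept the groups apart. In morulae it stood at 6.08 and 2.91 TPM against 3.28 and 2.59 TPM, and there the groups overlapped. In E4.5 ICM it had 9.28 and 9.92 TPM with DMSO, from 237 and 243 counts, and 0.0400 and 0 TPM with dTAG13, from 1 count in 1 library and 0 in the other. This gives a ratio of 465 with an exact 95% counting interval from 83.0 to 18398, which covers counting error only. In 2iES cells 14.7 and 10.2 TPM stood against 0.450 and 0.640 TPM, with 4.37% remaining at -4.69 ± 0.27. In both of these stages the treated libraries were far below the lower DMSO library.

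Among the genes at membranes, Lypla2 (ENSMUSG00000028670.14, chromosome 4, 135968224 to 135972626, minus strand) was close to the detection limit at the late two-cell stage. It stood there at 0.280, 0.550 and 0.480 TPM with DMSO, from 9 to 16 counts, and at 0.06, 0.39 and 0 TPM with dTAG13, from 0 to 14 counts, so the groups overlapped and a difference was not detectable at this depth. In morulae the DMSO libraries had 4.05 and 3.95 TPM, whereas the dTAG13 libraries disagreed with each other at 0.630 and 3.39 TPM. Both were below the DMSO libraries, but the estimate of -0.91 ± 0.56 went to -0.11 ± 0.52 without dTAG13 replicate 1 and to -2.64 ± 0.69 without dTAG13 replicate 2, when Lypla2 passed the call thresholds with 1 treated library left. In E4.5 ICM it stood at 22.9 and 26.3 TPM against 0.480 and 0.650 TPM, or 2.29% of control and -5.41 ± 0.16. In 2iES cells it stood at 22.7 and 12.8 TPM, from 1052 and 616 counts, against 0.06 and 0.05 TPM, from 2 counts in each library. The ratio there was 352 with an exact 95% counting interval from 137 to 1294, although the DMSO libraries themselves differed widely.

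Slc50a1 (ENSMUSG00000027953.13, chromosome 3, 89268246 to 89270570, minus strand) had no counts in treated E4.5 ICM. In late two-cell embryos it was low and the groups overlapped, with 2.14, 0.660 and 1.46 TPM for DMSO and 0.520, 0.670 and 1.61 TPM for dTAG13, all from 8 to 44 counts. In morulae it stood at 3.66 and 4.46 TPM against 1.48 and 2.17 TPM, apart but from few counts (16 and 27 with dTAG13), and its estimate of -1.20 ± 0.49 was not called. In E4.5 ICM the DMSO libraries had 15.7 and 16.2 TPM, from 295 and 280 counts, and both dTAG13 libraries had 0 counts. Taken against 3 counts per library, about the upper 95% limit for a count of 0, Slc50a1 was at least 92.8-fold lower. In 2iES cells it stood at 54.1 and 44.6 TPM against 3.66 and 3.48 TPM, so that 7.23% remained (-3.68 ± 0.17), and transcript was left in the treated 2iES libraries although the treated E4.5 ICM libraries had none.

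Gnai3 (ENSMUSG00000000001.4, chromosome 3, 108107280 to 108146146, minus strand) followed a course close to that of Zpr1, and the correlation of log2(TPM + 1) between these genes over the 18 libraries, which share stage and treatment, was 0.96. At the late two-cell stage it stood at 40.5, 46.0 and 37.9 TPM with DMSO and 14.0, 15.2 and 13.6 TPM with dTAG13, with 34.3% remaining (-1.62 ± 0.13). In morulae 15.8 and 20.8 TPM stood against 18.3 and 14.3 TPM, and the groups overlapped. In E4.5 ICM it stood at 40.7 and 38.3 TPM against 23.9 and 22.9 TPM, a difference of -0.80 ± 0.04 that stayed under 2-fold, and in 2iES cells at 17.7 and 21.4 TPM against 3.42 and 3.51 TPM (-2.43 ± 0.16). The share left was 59.2% in E4.5 ICM and 17.7% in 2iES cells. No exon of the 6 genes overlapped an exon of another gene in GENCODE M21, which matters because the library kit does not mark strand.

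The levels in the control libraries differed between stages. They are given as a description without p-values, because the choice of the genes bears on them. A large difference with dTAG13 needs a high DMSO level at the same stage. The call thresholds, which include an adjusted p, serve here only to set the genes beside all genes, and nothing is read from passing them. From the late two-cell stage to the morula the fitted log2 difference was 3.64 ± 0.33 (SE, n = 3 and 2) for Lypla2, 1.96 ± 0.41 for Slc50a1, 0.99 ± 0.13 for Dnajc2, -0.87 ± 0.18 for Gnai3, -1.09 ± 0.17 for Zpr1 and -1.34 ± 0.29 for Rnf25. Lypla2 and Slc50a1 were thus higher in morulae, and Zpr1 and Rnf25 lower, by more than the call thresholds ask. These are 2 of 6 genes higher and 2 of 6 lower, while 22.6% and 27.7% of all 19830 genes tested were called higher and lower, and the median of all genes was -0.28. The fitted differences near 2-fold moved across it when 1 library was left out. Zpr1 was at -0.89 without morula DMSO replicate 1, and Rnf25 at -0.97 and Gnai3 at -1.06 without morula DMSO replicate 2. Dnajc2 was at 1.00 to 1.09 without late two-cell DMSO replicate 1 or 2 or morula DMSO replicate 1. By the ratio of mean TPM with a pseudocount of 1, added after the data had been seen, Dnajc2 differed by only 0.33. By that ratio Lypla2 differed by 1.80, Slc50a1 by 1.06, Gnai3 by -1.14, Zpr1 by -1.28 and Rnf25 by -1.09.

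From the morula to E4.5 ICM the difference was 2.17 ± 0.30 (n = 2 and 2) for Lypla2, 1.59 ± 0.40 for Slc50a1, 1.09 ± 0.31 for Rnf25, 1.05 ± 0.19 for Zpr1, 0.75 ± 0.19 for Gnai3 and -0.40 ± 0.14 for Dnajc2. The former 4 of 6 passed the thresholds as higher and none as lower, beside 16.0% and 13.2% of all genes. Zpr1 and Rnf25 lay at the threshold, at 0.96 and 1.00 with the size factors of DESeq2 and by DESeq2 itself, which put both below it. Zpr1 was also below it without morula DMSO replicate 1 (0.84) and without E4.5 ICM DMSO replicate 1 (0.99) or 2 (0.94). Rnf25 was at 0.72 without morula DMSO replicate 2 and at 1.07 or 0.93 without E4.5 ICM DMSO replicate 1 or 2. Slc50a1 was at 1.51 without morula DMSO replicate 1. By the ratio of mean TPM with a pseudocount of 1, Lypla2 differed by 2.36, Slc50a1 by 1.74, Rnf25 by 0.95 and Zpr1 by 1.38. By that ratio Gnai3 differed by 1.07 and Dnajc2 by -0.02.

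Between E4.5 ICM and 2iES cells the values depended on the scaling. With TMM, Slc50a1 was higher in 2iES by 2.26 ± 0.37 (n = 2 and 2) and Rnf25 by 1.04 ± 0.29, so that 2 of 6 passed the thresholds as higher and none as lower, beside 12.0% and 12.7% of all genes. The others differed by 0.69 ± 0.14 (Dnajc2), 0.24 ± 0.27 (Lypla2), -0.24 ± 0.18 (Zpr1) and -0.40 ± 0.19 (Gnai3). Scaling by library totals moved the median of all genes from 0.00 to -0.33 and the share of lower genes among the calls from 51.4% to 75.4%. With it the differences were 1.79 for Slc50a1, 0.57 for Rnf25, 0.23 for Dnajc2, -0.22 for Lypla2, -0.71 for Zpr1 and -0.86 for Gnai3. By the ratio of mean TPM with a pseudocount of 1, added after the data had been seen, they were 1.57, 0.35, 0.40, -0.45, -0.99 and -0.98 in the same order. Slc50a1 was higher and Zpr1 and Gnai3 were lower in 2iES by all of these scalings, while Lypla2 changed its sign. With TMM, however, Zpr1 was at -0.02 without 2iES DMSO replicate 2, and Gnai3 at -0.22 without 2iES DMSO replicate 1. Rnf25 was at 0.97 or 1.11 without E4.5 ICM DMSO replicate 1 or 2, and at 0.85 without 2iES DMSO replicate 1. The mean control TPM of Slc50a1 was 1.42 ± 0.741 (SD, n = 3) at the late two-cell stage, 4.06 ± 0.566 in morulae, 15.9 ± 0.382 in E4.5 ICM and 49.4 ± 6.72 in 2iES cells (n = 2 each). Stage, genetic background, RNA input and library preparation cannot be told apart in these differences.

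The related genes were grouped by the known role of the member, in 6 lists of 49 genes in all, of which 47 matched a name in the files. With dTAG13, 2 of 44 tested were called lower and 0 higher at the late two-cell stage (beside 3.63% and 0.476% of all genes), 0 and 0 of 42 in morulae (0.198% and 0.154%), 3 and 2 of 42 in E4.5 ICM (13.2% and 12.1%) and 7 and 3 of 44 in 2iES cells (15.6% and 12.4%). Their median log2 fold change was -0.08, 0.09, -0.19 and -0.35 in that order. The libraries carry only replicate numbers, so p-values measure the spread between libraries that may be technical.

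The SMN complex assembles spliceosomal ribonucleoproteins and contains the SMN protein that ZPR1 binds. Of a list of 10 genes for this complex and the ZPR1 partner eEF1A, 4 of 10 were called lower in 2iES cells (15.6% of all genes), 1 of 10 at the late two-cell stage (3.63%), 1 of 10 in E4.5 ICM (13.2%) and none of 10 in morulae (0.198%). Smn1 fell at the late two-cell stage from 129 ± 26.9 to 34.2 ± 4.91 TPM (-1.97 ± 0.16, adjusted p = 2.69e-05, edgeR) and in 2iES cells from 78.7 ± 9.36 to 24.3 ± 3.08 TPM (-1.63 ± 0.15, adjusted p = 0.000243), while in E4.5 ICM its difference of -0.62 ± 0.04 was under 2-fold and in morulae it was 0.12 ± 0.20. The other subunits called lower in 2iES were Gemin6 (-1.02 ± 0.11), Gemin7 (-1.14 ± 0.17) and Gemin8 (-1.67 ± 0.22), and Gemin8 was also called in E4.5 ICM (-1.67 ± 0.21). The call of Gemin6 was lost without 2iES DMSO replicate 2 (-0.95) and without dTAG13 replicate 1 (-0.92) or 2 (-0.95), and that of Gemin7 without 2iES DMSO replicate 1 (-0.97) and without dTAG13 replicate 1 (-0.96). The elongation factor gene Eef1a1 was not called at any stage.

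Among acyl-protein thioesterases, Lypla1, the closest relative of Lypla2, was not called at any stage. It stood at 84.7 ± 0.962 TPM with DMSO and 78.1 ± 0.0849 with dTAG13 in E4.5 ICM, and at 79.6 ± 2.43 and 69.0 ± 3.65 in 2iES cells, where Lypla2 kept 2.29% and 0.310% of its level. In the same list Ppt2, a lysosomal thioesterase, fell in E4.5 ICM (-2.21 ± 0.22, adjusted p = 3.04e-11) and in 2iES cells (-2.80 ± 0.37, adjusted p = 0.00113), by edgeR. Abhd17a, a depalmitoylating enzyme, fell in 2iES cells (-2.30 ± 0.22, adjusted p = 0.000324), and its relative Abhd17c fell in 2iES cells (-1.07 ± 0.17, or -0.96 and no longer called without dTAG13 replicate 1) and rose in E4.5 ICM (1.59 ± 0.08, adjusted p = 2.35e-19). In all, 1 of 8 was called lower and 1 of 8 higher in E4.5 ICM (13.2% and 12.1% of all genes), and 3 of 8 lower in 2iES cells (15.6%).

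Among G protein alpha subunits, none was called lower at any stage. Gnai2, another inhibitory subunit, stood at 12.8 ± 2.54 and 12.8 ± 3.59 TPM at the late two-cell stage, where Gnai3 kept 34.3%, and its estimate in 2iES cells was -0.75 ± 0.19 (adjusted p = 0.0158, edgeR), under 2-fold. Gnai1 was called higher in E4.5 ICM (1.13 ± 0.15, adjusted p = 2.86e-08), from 1.54 ± 0.106 to 3.48 ± 0.148 TPM, and Gnaq, at under 1 TPM, was called higher in 2iES cells (1.04 ± 0.26), a call lost without DMSO replicate 1 (0.92) and without dTAG13 replicate 2 (0.87).

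Of the sugar transporters, Slc2a1, a facilitative glucose transporter, fell in E4.5 ICM from 12.3 ± 0.113 to 4.70 ± 0.120 TPM (-1.45 ± 0.09, adjusted p = 9.54e-18, edgeR) and was not called elsewhere, and Slc5a1 was called higher in 2iES cells from 0.260 ± 0.0849 to 1.49 ± 0.0141 TPM. Only 3 or 4 of the 6 transporters passed the count filter. Slc2a3 in E4.5 ICM stood at 37.8 ± 1.15 and 63.3 ± 0.0424 TPM (0.71 ± 0.03), under 2-fold. Of the genes listed for stalled ribosomes or as partners of RNF25, 6 of 8 matched a name. Nemf, a component of the quality control complex on the large subunit, was called higher in 2iES cells (1.12 ± 0.09, adjusted p = 0.000180, edgeR). No other gene of that list was called. Of 8 chaperones of nascent chains, Btf3, a subunit of the nascent polypeptide-associated complex, fell at the late two-cell stage (-1.47 ± 0.11, adjusted p = 1.73e-05), from 585 ± 1.49 to 220 ± 25.8 TPM, and no other was called. Hspa14, the partner of Dnajc2, differed by -0.29 ± 0.09, 0.34 ± 0.20, 0.00 ± 0.03 and -0.63 ± 0.10 across the stages and was not called.

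Of the 6 genes, 2 have a neighbour that starts within 1000 bases on the other strand and faces away. Psmc2, which encodes an ATPase subunit of the proteasome, starts 32 bases from Dnajc2 (chromosome 5, 21785283 to 21803787, plus strand), and Stk36 starts 48 bases from Rnf25 (chromosome 1, 74601445 to 74636894, plus strand). Psmc2 fell at the late two-cell stage from 200 ± 20.2 to 59.2 ± 7.10 TPM (-1.83 ± 0.13, adjusted p = 1.23e-05, edgeR) and in 2iES cells from 292 ± 4.66 to 92.6 ± 0.672 TPM (-1.57 ± 0.09, adjusted p = 5.78e-05). In E4.5 ICM it differed by -0.90 ± 0.03, under 2-fold, and in morulae by 0.44 ± 0.22. At each of the 3 stages at which Dnajc2 was lower with dTAG13, the estimate of Psmc2 was lower than that of Dnajc2, at -1.83, -0.90 and -1.57 against -1.08, -0.33 and -0.70, and this difference was not tested. Stk36, a kinase gene, was at or below 3.73 TPM in all groups. It was called lower in 2iES cells, from 1.15 ± 0.0707 to 0.10 ± 0.0283 TPM (-1.48 ± 0.47, adjusted p = 0.0342), a call that was lost by DESeq2 (adjusted p = 0.19), without dTAG13 replicate 1 (0.216) and without dTAG13 replicate 2 (0.137). With the replicate number as a block its adjusted p by edgeR was 0.0773 (0.0589 with crossed numbers) and in 1 fit of all 18 libraries 0.094, and it also failed the FPKM threshold when the mean was taken over all libraries of the contrast.

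**Figure D4:**
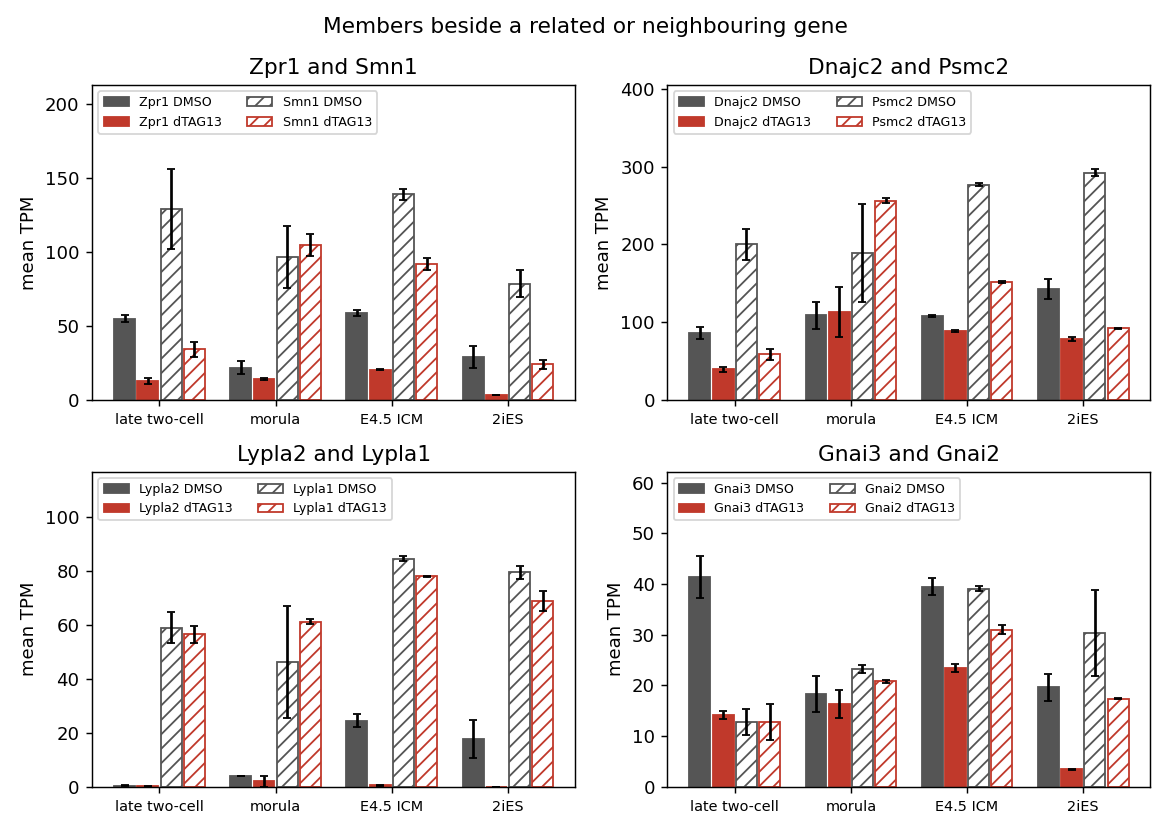
Mean TPM ± SD (y axis, from 0) by stage of 4 of the genes (filled bars) beside a related or neighbouring gene (hatched bars), with DMSO in grey and dTAG13 in red (n = 3 each at the late two-cell stage and 2 each elsewhere). Smn1 and Psmc2 are lower with dTAG13 in late two-cell embryos and 2iES cells, while Lypla1 keeps a similar level where Lypla2 is nearly lost.

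The genes whose pattern was most like each member were listed by the correlation of log2(TPM + 1) over the 18 libraries. They came from 9381 genes with a mean of at least 10 TPM in 1 of the 8 groups, and the members themselves were left out of this list. These libraries share stage and treatment, so the values are a description. Ints12, which encodes a subunit of the Integrator complex, came first for both Zpr1 (r = 0.948) and Gnai3 (r = 0.95), followed by Polr3d (0.947), a subunit of RNA polymerase III, for Zpr1 and by Mfap3 (0.936) for Gnai3. Umps (0.958) and Dhps (0.95) were closest to Rnf25, Grcc10 (0.958) and Tmem223 (0.949) to Slc50a1, Zfp105 (0.941) and Txndc12 (0.941) to Lypla2, and 1810022K09Rik (0.954) and Mrpl21 (0.95) to Dnajc2. Among the 6 genes themselves, Zpr1 and Gnai3 reached 0.96 and Lypla2 and Slc50a1 reached 0.85, whereas Slc50a1 and Gnai3 reached only 0.05.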

How the data were processed

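Gene expression was measured by RNA-seq (SMART-Seq v4 and Nextera XT, which do not mark strand, paired-end 75 bp). By the study's methods the authors trimmed reads with Trimmomatic (0.39 in the submitters' processing notes), aligned them with STAR and quantified genes with RSEM on GRCm38. The deposited tables give the authors' expected counts, TPM and FPKM per gene and library. The chromatin libraries of the series (CUT&RUN, ATAC-seq) were not used. The study used DESeq2, and the time at which morulae were collected is not given in the sources used here. The symbols Gcn1 and Znf598 had no match in the files.

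Expected counts were rounded and tested with edgeR 4.0.16 (TMM, quasi-likelihood test, Benjamini-Hochberg adjustment over all genes tested) in R 4.3.3, within each stage for dTAG13 against DMSO and in 1 fit of the 9 DMSO libraries between stages. Genes needed 10 counts in as many libraries as the smaller group held in the full design, also when a library was left out. DESeq2 1.42.0 was an alternative, and other scalings, filters, thresholds, a replicate block, leaving out each library and ratios of mean TPM (pseudocounts 1 and 0.1) were tried. The code was tested on simulated counts. Levels are TPM, and fold changes are from the fit unless stated. The bound for a gene without counts uses 3 counts per library, and counting intervals are 95% Clopper-Pearson intervals.

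The members and all lists were chosen with earlier results of these data known, and since DMSO libraries are an arm of the contrasts that chose the members, the comparison of members between control stages is given without p-values. The rule for named genes took the 6 members, Gabpa, any related gene that passed the filter and head-to-head neighbours within 1000 bases of a start. It also took the 2 genes, other than members, most correlated with each member. Positions are from GENCODE M21 and promoters from RefSeq. In late two-cell libraries the deviations of same-numbered libraries correlated at 0.09, 0.13 and 0.18, so that numbers were not taken to pair libraries.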

Additional observations from a re-analysis of the deposited data

How the results depend on the processing

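The number of members called stayed within 1.5 times the reported value in 76 of 88 alternatives. Apart from fits that left out a library, the exceptions were the step from morula to E4.5 ICM, with 2 of 6 past the thresholds instead of 4 with the size factors of DESeq2 and by DESeq2, and the difference of 2iES from E4.5 ICM, with 1 instead of 2 under library totals. Leaving out single libraries gave 4 to 4 members at the late two-cell stage, 0 to 1 in morulae, 2 to 4 in E4.5 ICM and 4 to 5 in 2iES cells for dTAG13, and 4 to 5, 2 to 3 and 1 to 2 for the control steps in order. Without either DMSO library of E4.5 ICM, Rnf25 and Slc50a1 no longer passed the count filter, and the same held for Lypla2 in 2iES cells. The filter still asked for the number of libraries of the full design, while only 1 control library was left. The lower count of 2 at the step to E4.5 ICM came without morula DMSO replicate 1 and without either E4.5 ICM replicate, and the lower count of 1 for 2iES came without either E4.5 ICM replicate and without 2iES DMSO replicate 1, where the lone library was assumed to vary like the others. Lypla2 between E4.5 ICM and 2iES turned from 0.24 to -0.22 under library totals, to -0.16 without 2iES DMSO replicate 1 and to -0.45 by the ratio of mean TPM (an alternative added after seeing the data), and it was 0.59 without 2iES DMSO replicate 2, with no call in any of these. For dTAG13, 286 refits of a member's fold change moved by less than 1 SD between replicates and 59 by more. Between control stages 207 kept their direction and side of the thresholds, 19 no longer passed them, 11 newly did and 3 turned (those of Lypla2). The causes were not tested.

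Over all genes, 716 were called at the late two-cell stage, 48 in morulae, 4000 in E4.5 ICM and 4339 in 2iES cells. Without a fold threshold these became 1473, 49, 10455 and 7334. In morulae the count was 110 under library totals (69.1% of them lower, against 56.2%), 110 by DESeq2, 245 without the filter, 179 in 1 fit of all libraries, 248 with the replicate block and 31 to 371 when 1 library was left out. With the replicate block the number of members called lower was 4, 0, 4 and 5 in the stages, as without it, and among related and neighbouring genes that were called the block ended the call of Stk36 in 2iES cells (adjusted p = 0.0773) and of no other. In 2iES cells the deviations of same-numbered libraries correlated at -0.21, and a block with crossed numbers, added after that was seen, called 4430 genes, against 4369 with the numbers as given. At the late two-cell stage every library correlated best with its own number, which is a hint from the data only. Among related genes in 2iES cells, the call of Gemin6 was also lost under library totals (-0.97) and in 1 fit of all libraries (-0.96), and that of Gnaq without the filter (0.96). Lypla2 had under 20 counts in each late two-cell library, where its log2 fold change had an SE of 1.05, and 2 libraries a group limit the other stages.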
